A study of Mus musculus with 16 samples.

Results

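A set of 10 transcription factor genes of the C/EBP, AP-1 and immediate-early families were followed in mouse gastrocnemius muscle. The genes (Cebpa, Cebpb, Cebpd, Fos, Fosb, Jun, Junb, Jund, Egr1 and Atf3) were taken by gene symbol from the 21923 genes of the deposited table. They were described in every mouse of the 4 groups, and all 10 passed the filter on low counts in every comparison.

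C/EBP proteins and AP-1 proteins are leucine-zipper transcription factors that bind DNA as pairs. AP-1 is formed by a Jun protein with a Fos, Jun or ATF partner. The genes of both families can be switched on within minutes to hours by cytokines, stress kinases, glucocorticoids or muscle contraction, and many of their transcripts are short-lived. In muscle, C/EBPβ and C/EBPδ are known from atrophy models as activators of proteolysis genes, and the Fos genes and Egr1 are known as early responders to exercise.

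The study asked how muscle responds to a cachexia-inducing tumor, to the drug amiloride and to a tumor with less exosome release. Adult C57BL/6 mice carried LLC lung carcinoma cells and adult BALB/c mice carried CT26 colon carcinoma cells under the skin, and the gastrocnemius was frozen on day 30. CAC mice carried a tumor and had a PBS injection each day from day 9, and AM mice carried a tumor and had amiloride at 2 mg/kg each day from day 9. KD mice carried tumor cells with Rab27 knocked down and had PBS, and NOR mice had PBS in place of both the tumor cells and the drug. Each group held 4 libraries from separate mice, of which replicates 1 and 2 were labelled C57BL/6 and replicates 3 and 4 were labelled BALB/c. Strain and tumor line changed together and cannot be told apart. None of the 4 sequenced groups had amiloride without a tumor. The knock-down was in the tumor cells, so the muscle libraries do not check it.

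The libraries held 35913190 to 61032708 counted reads. Defining muscle markers were high in all 16 libraries, with a summed level of 57562 to 184510 CPM (read counts scaled to library size by the trimmed mean of M-values, TMM) over 10 genes. The lowest sums were those of CAC 3 (57562 CPM), CAC 4 (88789 CPM) and KD 1 (104591 CPM), against 129264 to 184510 CPM in NOR mice. Several libraries stood apart. KD replicates 2 and 3 had summed fibroblast markers (5 genes) of 932 and 704 CPM against 2816 and 3077 CPM in the other 2 KD libraries. Summed lymphocyte markers (10 genes) were 0.497 to 3.29 CPM in NOR 1, CAC 1, CAC 4, KD 2 and KD 3 and 35.8 to 417 CPM in the others. All 4 Y-linked genes were at 0 in KD 3, and AM 1 held liver transcripts at a summed 1894 CPM. The level of Nnt, a gene partly deleted in the C57BL/6J substrain, did not separate the labelled strains (30.7 to 159 CPM in C57BL/6 and 27.0 to 315 CPM in BALB/c). The labels name C57BL/6 without a substrain, so this gene can neither bear out nor contradict the strain labels. Every split by labelled strain given here follows the labels alone. In bulk muscle, fewer cells of a type and less RNA per cell cannot be told apart. With 4 mice against 4, an exact two-sided permutation test cannot give a p below 0.0286.

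Per transcript length, Jun had the highest mean of the 10 genes in every group and Fosb the lowest. In NOR mice the mean level was 68.0 ± 30.3 FPKM (fragments scaled to transcript length and library size, SD, n = 4) for Jun, and Fos followed at 40.03 ± 25.9 FPKM. Jund stood at 31.0 ± 5.75 FPKM, Junb at 26.3 ± 10.7 FPKM and Egr1 at 21.4 ± 5.91 FPKM. Cebpa at 15.4 ± 16.1 FPKM, Cebpd at 13.5 ± 8.50 FPKM, Atf3 at 13.1 ± 11.4 FPKM and Cebpb at 10.96 ± 9.66 FPKM came next, above Fosb at 1.64 ± 0.857 FPKM. The order was different in CAC mice, where Cebpd was second at 97.5 ± 24.7 FPKM and Fos was eighth at 8.64 ± 5.49 FPKM. Neighbours in the order mostly overlapped: 8 of 9 neighbouring pairs had overlapping ranges in NOR, CAC and KD mice, and 9 of 9 in AM mice. Only Fosb stood clear below its neighbour, in NOR, CAC and KD mice.

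**Figure D1:**
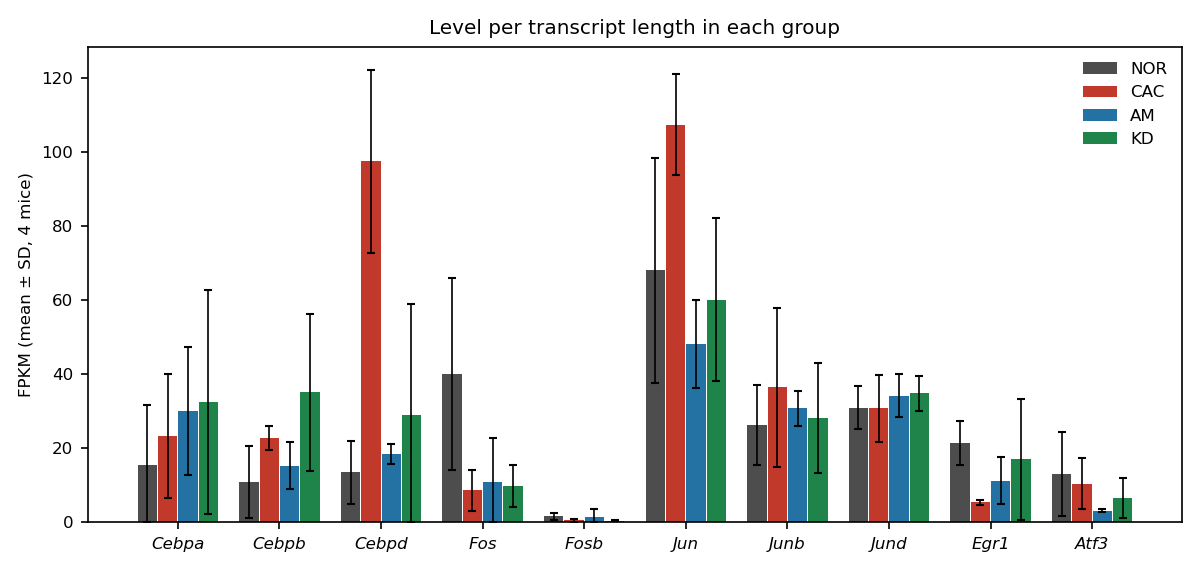
Mean level per transcript length (FPKM, y axis) of the 10 genes in the NOR, CAC, AM and KD groups, with bars for the mean and error bars for the SD of 4 mice (lower error bars end at 0). Jun was highest in every group, and Cebpd reached 97.5 FPKM in CAC mice against 13.5 FPKM in NOR mice.

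Of the 10 genes, 3 changed between CAC and NOR mice, with Cebpd higher and Fos and Egr1 lower. A gene was called when edgeR's quasi-likelihood test gave a Benjamini-Hochberg adjusted p of at most 0.05 and the level differed at least 1.5-fold in either direction. By this rule 9.45% of the 14666 genes tested were called in this comparison, 4.32% higher and 5.13% lower. The median log2 fold change of the 10 genes was 0.11, against 0.01 for all genes tested. The groups did not overlap for 1 gene higher (Cebpd) and 1 lower (Egr1), against 23.3% of all genes, and 4 of the 10 had an unadjusted edgeR p below 0.05, against 29.1% of all genes. Between AM and CAC mice, 2 of the 10 were called, Cebpd and Jun, both lower in AM mice. There 3.66% of 14674 genes were called, 1.63% higher and 2.03% lower, and the median was 0.03 for the 10 genes and 0.01 for all. The groups did not overlap for 1 gene higher (Egr1) and 2 lower (Cebpd and Jun), against 15.3% of all genes, and 4 of the 10 had an unadjusted edgeR p below 0.05, against 21.7% of all genes. The CAC libraries serve in both comparisons, so the direction in one is not independent of the other.

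None of the 10 was called in the other 3 comparisons, in which few or no genes were called at all. Between KD and CAC mice 0.00685% of genes were called, and Egr1 was the 1 member with an unadjusted edgeR p below 0.05 (11.1% of all genes). Between AM and NOR mice 0% were called, and 3 members (Fos, Egr1 and Atf3) had an unadjusted edgeR p below 0.05 (9.19% of all genes). Between KD and NOR mice 0% were called, and 3 members (Cebpb, Fos and Fosb) had an unadjusted edgeR p below 0.05 (3.54% of all genes). The KD and CAC groups did not overlap for 0 members, against 7.29% of all genes (3.71% higher and 3.58% lower). The AM and NOR groups did not overlap for 0 members, against 5.11% (2.29% higher and 2.82% lower), and the KD and NOR groups for 1, Fosb, against 2.26% (1.31% higher and 0.949% lower). DESeq2 called 0, 0 and 2 members in these 3 comparisons, the 2 being Fos and Fosb in KD against NOR mice, while limma-voom called 0 in each. DESeq2 called 340, 70 and 31 genes of all those tested there.

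**Figure D2:**
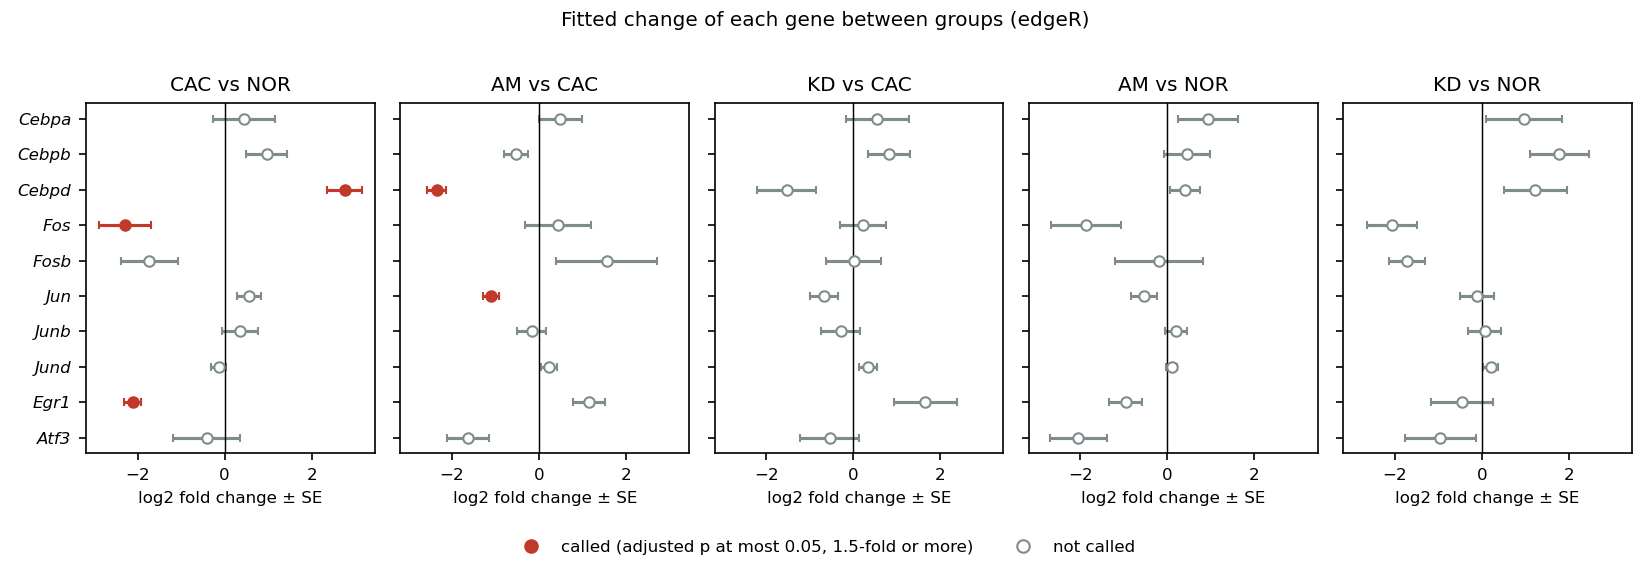
Fitted log2 fold change with its SE (x axis) of each of the 10 genes in the 5 comparisons, with filled red points for genes called by edgeR and open grey points for the rest. The called genes are Cebpd (2.76), Fos (-2.29) and Egr1 (-2.11) for CAC against NOR and Cebpd (-2.35) and Jun (-1.10) for AM against CAC.

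Among the C/EBP genes, Cebpd (ENSMUSG00000071637, chr16:15887286-15891031, plus strand, GRCm38) encodes C/EBPδ, an acute-phase factor induced by glucocorticoids and interleukin 6. Its level was 37.7, 31.8, 39.6 and 97.7 CPM in NOR mice 1 to 4 and 463, 244, 282 and 407 CPM in CAC mice 1 to 4. AM mice had 61.5, 60.3, 64.5 and 86.0 CPM and KD mice 33.4, 325, 63.2 and 62.4 CPM. Every CAC library lay above every NOR and AM library, and KD 2 alone of the KD libraries lay in the CAC range. The CAC against NOR log2 fold change was 2.76 (SE 0.40), with an edgeR adjusted p of 0.00522. The mean fell from 349 ± 103 CPM in CAC mice to 68.1 ± 12.1 CPM in AM mice (SD, n = 4), an edgeR adjusted p of 0.00320 (log2 fold change SE 0.22). Groups that did not overlap, in the higher direction, were found for 12.5% of all genes in CAC against NOR mice, and in the lower direction for 9.27% in AM against CAC mice.

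For Cebpd the difference between CAC and NOR mice in mean log2 CPM was 3.28 in the mice labelled C57BL/6 and 2.45 in those labelled BALB/c. Between AM and CAC mice it was -2.46 and -2.19. Without NOR 1, CAC 1 and CAC 4, the libraries low in lymphocyte markers, the CAC against NOR log2 fold change was 2.26, with an edgeR adjusted p of 0.0660. In a fit of all 16 libraries the AM against CAC value was -2.36, with an edgeR adjusted p of 0.0561. Between KD and CAC mice the edgeR adjusted p was 0.451. Without KD 2 and KD 3 the log2 fold change was -2.87, but these are the 2 KD libraries highest in Cebpd, so their removal had to lower it and the value is no test.

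Cebpb (ENSMUSG00000056501, chr2:167688915-167690418, plus strand) encodes C/EBPβ, a factor of inflammatory and adipogenic gene programs. Its level was 9.42, 11.8, 7.75 and 37.9 CPM in NOR mice and 36.6, 27.8, 30.7 and 34.7 CPM in CAC mice. It was 26.2, 11.9, 32.6 and 19.4 CPM in AM mice and 29.9, 82.7, 99.9 and 18.4 CPM in KD mice. NOR 4 lay above all 4 CAC libraries, and KD 2 and KD 3 lay above every library of the other groups. Cebpb was not called between CAC and NOR mice, with a log2 fold change of 0.96 (SE 0.47) and an edgeR adjusted p of 0.215. Without NOR 4 the value was 1.74, with an edgeR adjusted p of 0.00434, but NOR 4 is the highest NOR library, so leaving it out had to raise the value and this call is no support. Leaving out any other single library gave no call. Between KD and CAC mice the log2 fold change was 0.82, which was not called. Without KD 2 and KD 3, the 2 highest KD libraries, it was -0.43, a value that their removal had to lower.

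Cebpa (ENSMUSG00000034957, chr7:35119293-35121928, plus strand) encodes C/EBPα, a factor of mature fat cells, liver and myeloid cells. Its level was 21.8, 27.0, 7.71 and 93.1 CPM in NOR mice and 20.8, 38.3, 90.5 and 50.4 CPM in CAC mice. It was 59.1, 134, 47.7 and 43.7 CPM in AM mice and 142, 18.7, 21.3 and 112 CPM in KD mice. The groups overlapped throughout, and no comparison called the gene, with log2 fold changes from 0.44 to 0.98. Summed adipocyte markers (10 genes, Cebpa not among them) ranged from 901 to 4349 CPM in NOR mice and from 1334 to 5734 CPM in CAC mice. They ranged from 1704 to 5497 CPM in AM mice and from 1279 to 4762 CPM in KD mice, with none of the 10 markers at 0 in any library. The 5 libraries with the highest Cebpa (NOR 4, CAC 3, AM 2, KD 1 and KD 4, at 90.5 CPM or more) were the 5 with the highest adipocyte sum, 4124 CPM or more. The part of fat in the Cebpa levels was not tested. This pair of gene and list, that of Egr1 with fibroblast markers and the numbers of libraries compared were picked after the values were seen. Of the 5 libraries highest in Cebpb, 1 was among the 5 highest in adipocyte markers and 1 among the 5 highest in neutrophil markers, and of the 6 highest in Egr1, 2 were among the 6 highest in neutrophil markers.

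**Figure D3:**
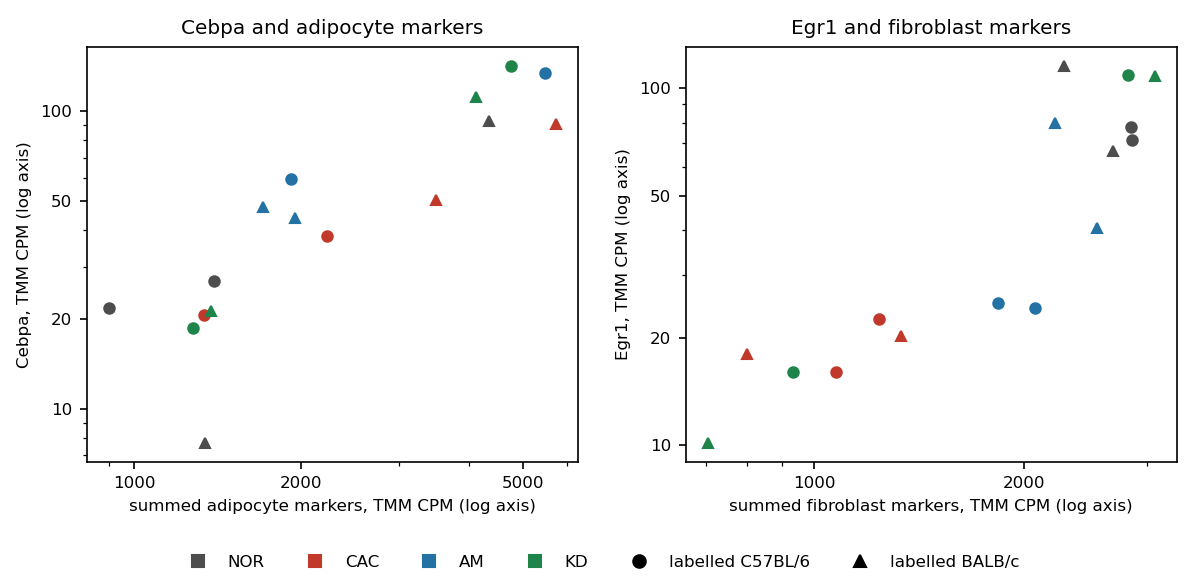
Left, Cebpa against the summed level of 10 adipocyte markers, and right, Egr1 against that of 5 fibroblast markers, with 1 point per library on log axes in TMM CPM, colors for groups and shapes for the labelled strain. The 5 libraries highest in Cebpa are the 5 highest in adipocyte markers, and the 6 lowest in Egr1 are the 6 lowest in fibroblast markers, in pairs and at numbers of libraries picked after the values were seen.

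Fos (ENSMUSG00000021250, chr12:85473890-85477273, plus strand) encodes c-Fos, the prototype immediate-early AP-1 protein. Its level was 29.1, 51.5, 144 and 117 CPM in NOR mice and 18.5, 8.10, 10.2 and 32.6 CPM in CAC mice. It was 4.67, 12.3, 13.5 and 62.7 CPM in AM mice and 26.8, 16.5, 8.06 and 30.0 CPM in KD mice. NOR mice held the highest values, but CAC 4, AM 4 and KD 4 each lay above NOR 1. The CAC against NOR log2 fold change was -2.29 (SE 0.59), with an edgeR adjusted p of 0.0374 and an exact permutation p of 0.0571. The call was lost when any of 6 libraries was left out. The edgeR adjusted p was 0.0624 without NOR 2, 0.0971 without NOR 3 and 0.0778 without NOR 4. It was 0.0859 without CAC 1, 0.0811 without CAC 2 and 0.0826 without CAC 3, and 0.0632 in the fit of all 16 libraries. The mean was 23.3 ± 26.6 CPM in AM mice and 20.3 ± 10.0 CPM in KD mice, against 17.4 ± 11.1 CPM in CAC mice and 85.5 ± 54.2 CPM in NOR mice (SD, n = 4). For AM against CAC mice the log2 fold change was 0.44 (SE 0.77), and it was -0.78 without AM 4.

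Fosb (ENSMUSG00000003545, chr7:19302696-19310051, minus strand) encodes FosB and is the other Fos gene among the members. Its level was 3.57, 2.81, 8.65 and 6.55 CPM in NOR mice and 1.31, 0.291, 1.41 and 3.46 CPM in CAC mice. It was 0.841, 0.988, 0.675 and 16.3 CPM in AM mice and 2.17, 1.07, 1.27 and 2.04 CPM in KD mice. AM 4 held the highest Fosb of all 16 libraries, while the other 3 AM libraries lay below every NOR and KD library. Every KD library lay below every NOR library, an order seen in 0.949% of all genes for KD lower than NOR. The KD against NOR log2 fold change was -1.72 (SE 0.42), with an exact permutation p of 0.0286 and an edgeR adjusted p of 0.999. The CAC against NOR value was -1.73 (SE 0.66), with an edgeR adjusted p of 0.121, and -2.41 with an adjusted p of 0.0484 without CAC 4. CAC 4 is the highest CAC library, so leaving it out had to lower the value and this call is no support, and leaving out any other single library gave no call. Fosb was also called in this comparison by DESeq2 (adjusted p 0.0337) and by edgeR with labelled strain as a covariate (adjusted p 0.0425).

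The proximal promoters of Fos and Jun are shown because Fos was called in CAC against NOR mice and Jun in AM against CAC mice. That of Fosb is shown because it is the other Fos gene among the members. Each line gives the 150 bases before the RefSeq start in GRCm38.p6, read 5′ to 3′ on the gene's strand, and capitals mark TGACG, the core of a cAMP-response element, or TGACNTCA, its 8-base form, on either strand.
Fos (chr12:85473740-85473889, plus strand): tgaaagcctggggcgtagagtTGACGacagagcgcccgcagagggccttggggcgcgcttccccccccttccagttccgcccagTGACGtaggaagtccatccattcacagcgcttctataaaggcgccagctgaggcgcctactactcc
Fosb (chr7:19310046-19310195, minus strand): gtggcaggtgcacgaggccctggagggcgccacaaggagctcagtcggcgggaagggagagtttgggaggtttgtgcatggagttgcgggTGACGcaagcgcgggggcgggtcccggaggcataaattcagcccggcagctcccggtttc
Jun (chr4:95052223-95052372, minus strand): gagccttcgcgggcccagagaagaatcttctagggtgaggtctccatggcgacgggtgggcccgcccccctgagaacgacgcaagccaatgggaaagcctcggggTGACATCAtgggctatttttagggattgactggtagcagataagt

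The match nearest the start began 66 bases before it in Fos, 60 bases before it in Fosb and 45 bases before it in Jun. Of the 8 members with a promoter in the RefSeq table, 5 held TGACG in this window (Atf3, Cebpb, Fos, Fosb and Junb), and 1, Jun, held TGACNTCA. Over all 32851 promoters the shares were 13.3% for TGACG and 5.71% for TGACNTCA, which contains TGACG where N is G. None of the 8 windows held TGANTCA, the AP-1 form, found in 4.24% of promoters, or TTNNGCAA, a C/EBP form, found in 5.46%. The windows of Cebpa, Cebpb, Fos and Jun meet the gene starts given here, and the other 4 do not. The Fosb window reaches 6 bases into the gene, the Junb window ends 30 bases before it, the Jund window (chr8:70697589-70697738) ends 1210 bases before it and the Atf3 window (chr1:191183334-191183483) lies inside the gene. A match is a description of letters and not a measured binding site.

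Among the Jun genes, Jun (ENSMUSG00000052684, chr4:95049034-95052222, minus strand) encodes c-Jun, the AP-1 subunit activated by the JNK kinases. Its level was 152, 135, 331 and 269.9 CPM in NOR mice and 384, 287, 273 and 361 CPM in CAC mice. It was 151, 106, 195 and 153 CPM in AM mice and 106, 339, 203 and 175 CPM in KD mice. Every AM library lay below every CAC library, while the NOR libraries were a low pair labelled C57BL/6 and a high pair labelled BALB/c. Jun fell by 1.10 (SE 0.19) on the log2 scale from CAC to AM mice, with an edgeR adjusted p of 0.0190. The edgeR adjusted p was 0.0593 without CAC 1, 0.0586 without AM 1, 0.0606 without AM 4 and 0.0920 in the fit of all 16 libraries. Without CAC 1 and CAC 4, both low in lymphocyte markers, it was 0.145, with a log2 fold change of -0.90. The difference was -1.39 in mean log2 CPM in the mice labelled C57BL/6 and -0.86 in those labelled BALB/c. Between CAC and NOR mice the log2 fold change was 0.56 (SE 0.28), which was not called, and the difference in mean log2 CPM was 1.21 in the mice labelled C57BL/6 and 0.072 in those labelled BALB/c. The interaction with the labelled strain had an unadjusted edgeR p of 0.0123 and an adjusted p of 0.917.

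Junb (ENSMUSG00000052837, chr8:84974484-84978718, minus strand) encodes JunB, a Jun protein also known for maintaining muscle fiber size. Its level ran from 26.5 to 70.7 CPM in NOR mice, 30.9 to 113 CPM in CAC mice, 46.6 to 58.8 CPM in AM mice and 24.1 to 74.2 CPM in KD mice. Jund (ENSMUSG00000071076, chr8:70698949-70700616, plus strand) encodes JunD, the Jun protein most steadily present in resting cells. Its level ran from 43.9 to 60.9 CPM in NOR mice, 39.3 to 63.7 CPM in CAC mice, 47.0 to 64.8 CPM in AM mice and 46.8 to 77.7 CPM in KD mice. All ranges overlapped for both genes. Over the 5 comparisons the log2 fold changes lay between -0.29 and 0.36 for Junb and between -0.14 and 0.34 for Jund, and neither gene was called. Several of these signs turned under other settings.

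Egr1 (ENSMUSG00000038418, chr18:34859823-34864984, plus strand) encodes a zinc-finger factor of the serum response that is induced beside Fos. Its level was 77.7, 71.5, 115 and 66.8 CPM in NOR mice and 22.7, 16.03, 18.0 and 20.2 CPM in CAC mice. It was 24.3, 25.04, 40.7 and 79.9 CPM in AM mice and 109, 16.04, 10.2 and 108 CPM in KD mice. All CAC libraries lay below all NOR and AM libraries, and the KD libraries split into a pair in the NOR range and a pair, KD 2 and KD 3, in or below the CAC range. Egr1 fell by 2.11 (SE 0.19) on the log2 scale from NOR to CAC mice, with an edgeR adjusted p of 0.00191. Groups that did not overlap, in the lower direction, were found for 10.8% of all genes in this comparison. The difference in mean log2 CPM was -1.97 in the mice labelled C57BL/6 and -2.20 in those labelled BALB/c. In AM against CAC mice the log2 fold change was 1.15 (SE 0.37), with an exact permutation p of 0.0286 and an edgeR adjusted p of 0.115. In that direction, 6.05% of all genes did not overlap. DESeq2 called Egr1 in AM against CAC mice (adjusted p 0.0192), and limma-voom did not.

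The sum of the 5 markers was 2280 to 2853 CPM in NOR mice, 801 to 1331 CPM in CAC mice, 1837 to 2541 CPM in AM mice and 704 to 3077 CPM in KD mice, with none of them at 0. The 6 libraries with the lowest Egr1 (CAC 1 to 4, KD 2 and KD 3, at 22.7 CPM or less) were the 6 with the lowest fibroblast sum. This sum follows mainly the collagen genes. Col1a1 stood at 661 ± 139 CPM in NOR mice and 54.7 ± 12.4 CPM in CAC mice, and Col3a1 at 909 ± 158 and 114 ± 36.7 CPM (SD, n = 4). The others were not called: Dcn, a matrix proteoglycan gene, stood at 956 ± 35.6 and 859 ± 178 CPM, the receptor gene Pdgfra at 63.6 ± 4.50 and 47.8 ± 14.7 CPM and Lum at 75.2 ± 15.04 and 35.2 ± 16.3 CPM. In KD mice all 5 markers spread widely, with Dcn from 425 to 996 CPM, Pdgfra from 23.0 to 73.0 CPM and Lum from 26.5 to 107 CPM. The part of fibroblasts in the Egr1 levels was not tested. The lowest 6 in Fos shared 3 libraries with the lowest 6 in this sum. The KD against CAC log2 fold change of Egr1 was 1.66, with an edgeR adjusted p of 0.446. Without KD 2 and KD 3 it was 2.49, but these are the 2 KD libraries lowest in Egr1, so their removal had to raise it and the value is no test.

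Atf3 (ENSMUSG00000026628, chr1:191170296-191218039, minus strand) encodes a stress-induced ATF protein that can pair with Jun. Its level was 8.26, 5.25, 47.9 and 41.7 CPM in NOR mice and 6.24, 24.5, 11.3 and 35.2 CPM in CAC mice. It was 4.96, 7.20, 5.82 and 6.80 CPM in AM mice and 4.05, 16.1, 6.31 and 26.7 CPM in KD mice. The AM libraries were low and close together, at a mean of 6.19 ± 1.01 CPM (SD, n = 4), but CAC 1 lay among them. The AM against CAC log2 fold change was -1.64 (SE 0.48), with an edgeR adjusted p of 0.0898, and it was -1.93 with an adjusted p of 0.0433 without CAC 1. CAC 1 is the lowest CAC library, so leaving it out had to lower the value and this call is no support, and leaving out any other single library gave no call. With every library kept, Atf3 was called in AM against CAC mice by DESeq2 (adjusted p 0.00702) but not by limma-voom. The 2 NOR libraries labelled BALB/c stood well above the 2 labelled C57BL/6, and the CAC against NOR difference in mean log2 CPM was 0.91 in the mice labelled C57BL/6 and -1.16 in those labelled BALB/c.

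**Figure D4:**
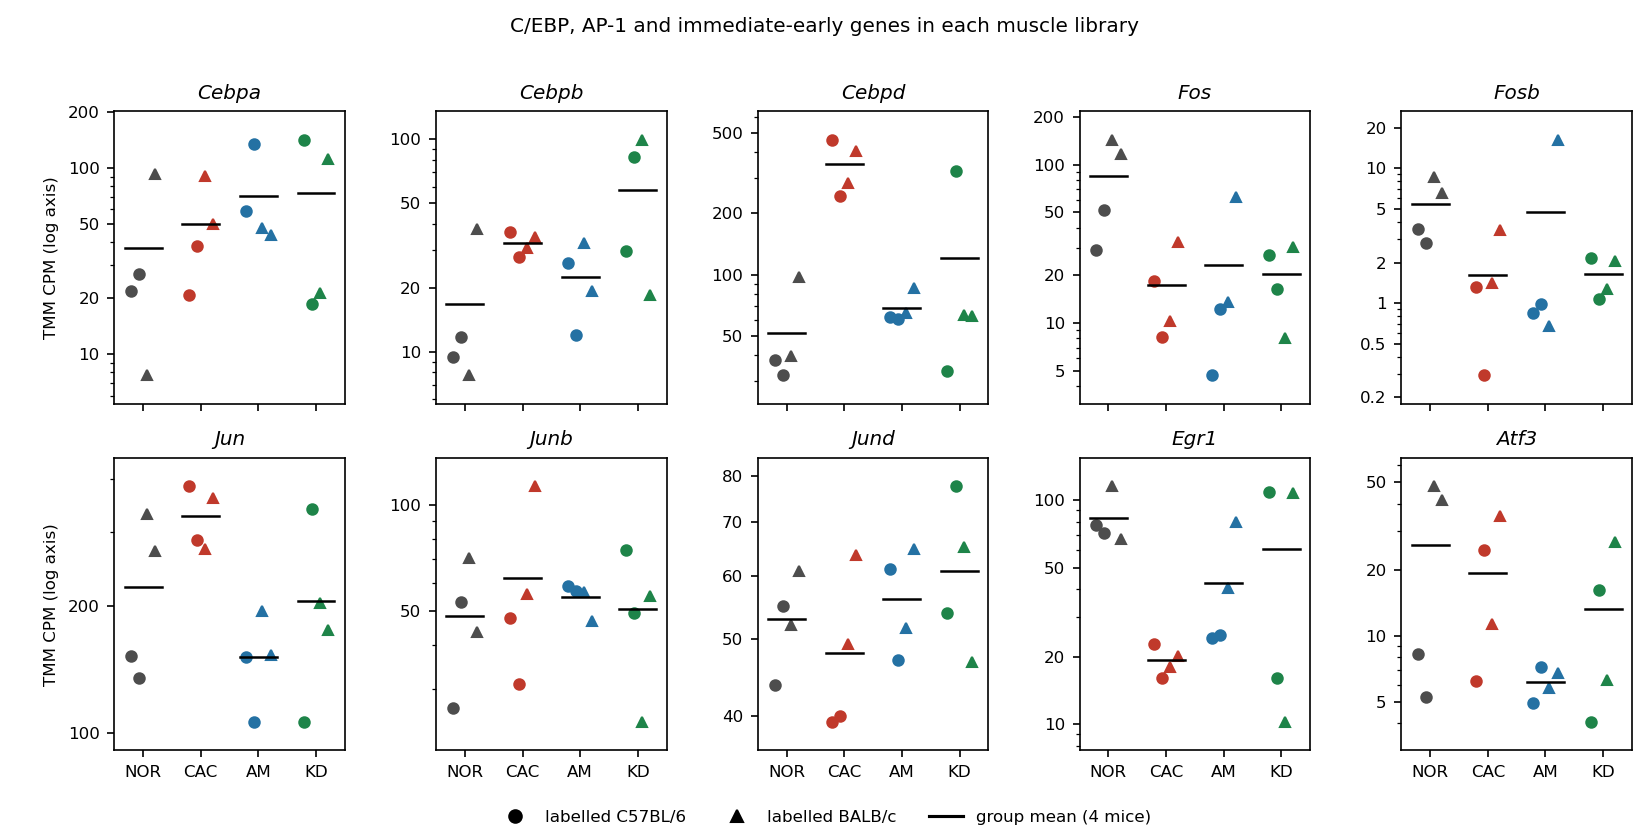
Level of each of the 10 genes in each library (TMM CPM, log y axis) by group, with circles for mice labelled C57BL/6, triangles for mice labelled BALB/c and a line at the mean of 4 mice. Cebpd in CAC mice (243.8 to 463 CPM) lies above all NOR and AM libraries, Egr1 in CAC mice (16.03 to 22.7 CPM) lies below them, and KD 2 and KD 3 part from KD 1 and KD 4 in Cebpa, Cebpb and Egr1.

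Whether a change depended on the labelled strain was tested by an interaction term in edgeR. No member passed at an adjusted p of 0.05 in CAC against NOR, AM against CAC or KD against CAC mice, and neither did any other gene (0% in each). At an unadjusted edgeR p below 0.05 there were 1 (Jun), 3 (Cebpa, Junb and Egr1) and 1 (Junb) members. Of all genes tested, 4.89% of 14666, 12.4% of 14674 and 5.65% of 14593 had such a p. For Cebpa in AM against CAC mice the difference in mean log2 CPM was 1.66 in the mice labelled C57BL/6 and -0.56 in those labelled BALB/c. DESeq2 passed this 1 interaction, with an adjusted p of 0.0175, and limma-voom passed 0. The share of all genes that passed with DESeq2 is not given here, so this pass is not read as a result about the members.

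Within groups, the level of Fos was correlated with those of Fosb and Egr1 by Pearson's r. Over the 16 libraries, deviations of log2 CPM from the group mean gave Pearson's r = 0.82 and Spearman's rho = 0.78 for Fos and Fosb, with permutation p-values of 0.00094 and 0.00236. The adjusted values over the 45 pairs of members were 0.0257 and 0.0531 by permutation. For Fos and Egr1, r was 0.64 and rho was 0.63, with permutation p-values of 0.00114 and 0.00857 and adjusted values of 0.0257 and 0.111. Without AM 1 and AM 4, the libraries farthest from the median in Fos, r was 0.72 for Fosb and 0.58 for Egr1. These 2 of the 45 pairs passed by Pearson's r and none by Spearman's rho. With total-count CPM in place of TMM, Fos and Fosb also passed by Spearman's rho, with an adjusted permutation p of 0.0468. Taken from the mean of each group and labelled strain, r was 0.79 for Fosb and 0.63 for Egr1, each with a permutation p of 0.0228 and an adjusted value of 0.257, so that neither pair passed. For Cebpd and Jun, r was 0.75 (permutation p = 0.0134, adjusted 0.151) and rho was 0.74 (permutation p = 0.00164, adjusted 0.0531), the smallest Spearman p of the 45 pairs. For Fosb and Egr1, r was 0.49 (permutation p = 0.00620, adjusted 0.0930) and rho was 0.56 (permutation p = 0.00989, adjusted 0.111). Fos and Jun had an r of 0.24, with a permutation p of 0.374.

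**Figure D5:**
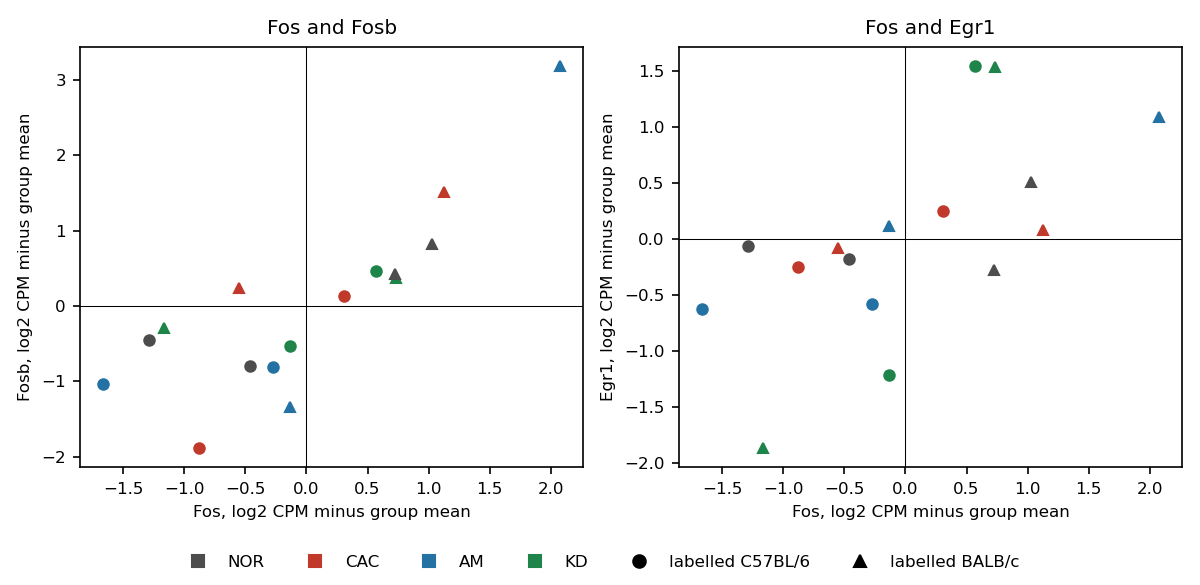
Deviation of Fosb (left) and Egr1 (right) from the group mean (log2 CPM, y axis) against that of Fos (x axis), with 1 point per library, colors for groups and shapes for the labelled strain. Libraries high in Fos for their group were high in Fosb (r = 0.82) and Egr1 (r = 0.64), with AM 4 farthest out in Fos.

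By the likeness of log2 CPM over the 16 libraries, among 13200 other genes, the genes closest to Cebpd were Serinc3 (r = 0.965), the death receptor gene Fas (r = 0.953) and Anp32b (r = 0.950). Serinc3 stood at 441 ± 94.4, 773 ± 98.4, 456 ± 17.1 and 496 ± 151 CPM in NOR, CAC, AM and KD mice (SD, n = 4). Fas stood at 7.68 ± 2.62, 20.7 ± 4.30, 9.56 ± 1.45 and 12.4 ± 5.23 CPM. Like Cebpd, both had their highest group mean in CAC mice. The genes closest to Fos were Phlda1 (r = 0.904), Sybu (r = 0.826) and Hist1h1d (r = 0.775). Phlda1 stood at 28.5 ± 16.1 CPM in NOR mice and at 8.27 ± 2.44, 9.65 ± 3.28 and 11.2 ± 3.84 CPM in CAC, AM and KD mice. These r values include the differences between groups and are descriptions.

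Genes listed beside the 10 by family or by name were read next. Over all genes tested, 4.32% were called higher and 5.13% lower in CAC against NOR mice, with a median log2 fold change of 0.01. In AM against CAC mice 1.63% were called higher and 2.03% lower, with a median of 0.01. These shares are the background of every list given from here on. Of 12 other AP-1 and small Maf genes, 2 rose in CAC against NOR mice, Mafk (log2 fold change 0.91, SE 0.15) and Fosl2 (0.83, SE 0.18), and the median was 0.56. None of the 12 was called in AM against CAC mice, with a median of -0.20. Of 4 genes listed beside the C/EBP members by family or by name (Cebpe, Cebpg, Cebpz and Ddit3), none was called in either comparison. Of these uncalled genes 3, picked after their values were seen, passed the edgeR adjusted p but not the fold of 1.5. Cebpg, which pairs with other C/EBP proteins, had a log2 fold change of 0.43 in CAC against NOR mice and -0.51 in AM against CAC mice. Atf4, the factor of the amino acid response, had 0.46 and -0.57, and Cebpz had 0.56 in CAC against NOR mice.

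Other immediate-early genes did not move as a block between CAC and NOR mice. Of 19 tested, 3 rose and 1 fell, with a median of -0.15. Ier3 rose by 1.51 (SE 0.25) on the log2 scale, Sik1 by 1.19 (SE 0.21) and the proto-oncogene Myc by 1.05 (SE 0.23). Nr4a1, an orphan receptor gene induced by contraction, fell by 1.21 (SE 0.20), from 220.2 ± 39.6 to 96.0 ± 23.0 CPM (SD, n = 4). In AM against CAC mice 1 of the 19 was called, Myc, which fell by 1.02 (SE 0.22).

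Among the genes upstream of Fos and Jun, 1 of 16 kinases was called in CAC against NOR mice. Map2k6, which activates p38, fell by 2.37 (SE 0.30) on the log2 scale, from 29.8 ± 2.02 to 5.78 ± 2.74 CPM. Of 9 upstream transcription factors, Stat3 (log2 fold change 0.93, SE 0.22) and Elk4 (0.63, SE 0.14) rose and Mkl1, a coactivator of serum response factor, fell by 1.44 (SE 0.21). Of 7 dual-specificity phosphatases, which switch off MAP kinases, Dusp10 fell by 2.85 (SE 0.36) and Dusp8 by 0.81 (SE 0.20). Dusp10 stood at 93.2 ± 38.7 CPM in NOR mice, 13.1 ± 5.17 CPM in CAC mice and 43.3 ± 14.1 CPM in AM mice. It rose in AM against CAC mice by 1.72 (SE 0.32), the only call among these 3 lists in that comparison.

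Of 13 textbook targets of C/EBP and AP-1 tested, 3 rose and 1 fell in CAC against NOR mice, with a median log2 fold change of 0.78. Saa3, an acute-phase gene, was at 0.0707 ± 0.0628 CPM in NOR mice and 16.5 ± 15.5 CPM in CAC mice. Lcn2, another acute-phase gene, was at 2.10 ± 1.72 and 52.9 ± 57.7 CPM, and the matrix protease gene Mmp9 at 6.09 ± 1.97 and 18.5 ± 7.86 CPM. The cyclin gene Ccnd1 fell by 1.56 (SE 0.26). In AM against CAC mice Saa3 fell, to 0.296 ± 0.210 CPM, the 1 call of the 13. All 3 risen targets are also genes of neutrophils or inflamed tissue, and 5 of 10 neutrophil markers rose in CAC against NOR mice, among them Csf3r (log2 fold change 2.70, SE 0.26). Summed neutrophil markers were 9.32 to 43.7 CPM in NOR mice, 125 to 293 CPM in CAC mice, 23.0 to 265 CPM in AM mice and 18.0 to 402 CPM in KD mice. The part of these cells in the targets or in the members was not tested. The 5 libraries highest in Cebpd and the 5 highest in neutrophil markers shared 2.

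Other cell markers also moved in CAC against NOR mice. The 10 skeletal muscle markers had a median log2 fold change of -0.44, with no single call by edgeR. The collagen gene Col1a1 fell by 3.61 (SE 0.23) on the log2 scale and 1 other of the 5 fibroblast markers, Col3a1, fell as well. Of 6 erythroid markers 5 rose, with Alas2 up by 2.59 (SE 0.26). Plin4, Itgam and Pecam1 were the single calls, all higher, among the adipocyte, macrophage and endothelial markers. In AM against CAC mice Col1a1 rose by 3.02 (SE 0.26) and Col3a1 by 2.67 (SE 0.25), Plin4 and Itgam fell by 1.04 (SE 0.24) and 1.13 (SE 0.22), and the macrophage gene Cx3cr1 rose by 1.47 (SE 0.33). No gene of any of these lists was called in KD against CAC mice or in the comparisons of AM and KD with NOR mice.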

How the data were processed

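Poly(A)-enriched RNA of 16 gastrocnemius muscles was sequenced, 4 mice per group. The deposited table gives a read count and an FPKM value per gene and library, made by the authors, whose processing notes name fastp, Bowtie2, HISAT2 and StringTie 1.3.1 and the builds mm9 and GRCm38 without their roles. FPKM was the count divided by total and transcript length. The 21923 genes included 3719 at 0 in every library, and 0 columns belonged to other samples. Whether counting used strand is not given in the sources used here. The growth notes name male and female BALB/c mice and the study's methods name male mice.

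Deposited counts were tested with edgeR 4.0.16 (TMM, filterByExpr at 10 reads per library and 15 in total, quasi-likelihood test over the 8 libraries of each comparison, Benjamini-Hochberg adjustment over all genes tested). The limits followed the study's (FDR at most 0.05 and at least a 1.5-fold difference). Single genes were also compared by an exact two-sided permutation test on TMM CPM. Correlations used log2 CPM (prior count 2) and 100000 permutations within groups. No 2 libraries of a group agreed within sampling noise (lowest chi-square per degree of freedom 69.3 over 24 pairs). Alternatives used R 4.3.3, DESeq2 1.42.0 and limma 3.58.1, and the scripts were tested on simulated data.

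The members and lists were chosen with earlier results of these data known. Named besides the 10 members were the called gene with the smallest p of each list and direction in the 3 main comparisons and the 3 genes most like Cebpd and Fos (mean of at least 1 CPM), plus further called genes of short lists, which were chosen after their values were seen. Gene positions are from GENCODE M21 (GRCm38), and promoters are from RefSeq (GRCm38.p6), which held 8 of the 10 members.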

Additional observations from a re-analysis of the deposited data

Results flagged for a closer look

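In each group of 4, the CPM of the highest or lowest library was compared with the others by its gap over the group's range (Dixon's test). Of 40 groups tested, 7 passed. The test flags about 1 in 20 groups by chance only where values are normal. CPM values are skewed, the groups mix labelled strains, all 7 were high values and 5 came from AM 4 and NOR 4, so the number is not read as an excess. AM 4 was far above its group in Fos (62.7 CPM, others 4.67 to 13.5), in Fosb (16.3 CPM, others 0.675 to 0.988) and in Cebpd (86.0 CPM, others 60.3 to 64.5). NOR 4 was far above its group in Cebpb (37.9 CPM, others 7.75 to 11.8) and Cebpd (97.7 CPM, others 31.8 to 39.6). KD 2 was far above its group in Cebpd (325 CPM, others 33.4 to 63.2), and AM 2 in Cebpa (134 CPM, others 43.7 to 59.1). AM 4 had the lowest summed neutrophil (23.0 CPM) and erythroid (967 CPM) markers of the AM libraries, and NOR 4 and AM 2 had the highest adipocyte sums of their groups (4349 and 5497 CPM). KD 2 had the highest erythroid sum of all 16 libraries (21222 CPM, other KD libraries 2226 to 4010). The part of these in the levels was not tested.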

How the results depend on the processing

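The number of members called in CAC against NOR mice was 3, and 2 to 4 when 1 library was left out. In the mice labelled C57BL/6 alone Cebpd and Egr1 were called. The number was 0 in the mice labelled BALB/c alone, where 0 of all genes were called. In AM against CAC mice it was 2, and 1 to 2 when 1 library was left out. It was 4 with DESeq2 (Egr1 and Atf3 added), 1 without the 5 libraries low in lymphocyte markers, 0 in 1 fit of all 16 libraries and 0 in the mice of either labelled strain alone. In KD against CAC mice it was 0, and 2 without both KD libraries 2 and 3, and in KD against NOR mice it was 0, and 2 with DESeq2. The strain interaction of 1 member, Cebpa, passed with DESeq2 in AM against CAC mice, and 0 otherwise. The exclusions by lymphocyte markers and of KD libraries 2 and 3 were chosen after seeing the data. KD libraries 2 and 3 are the lowest KD libraries in Egr1 and the highest in Cebpd and Cebpb, so the 2 calls without them are no test. Over all genes the calls ranged from 0 to 1921 (CAC against NOR, 1386 as reported), 0 to 1119 (AM against CAC, 537), 0 to 340 (KD against CAC, 1), 0 to 70 (AM against NOR, 0) and 0 to 31 (KD against NOR, 0). These ranges are over the same settings, so a count of members that rises or falls with the setting is not read as a result about the members. Correlations that passed by Pearson's r numbered 2, and 0 as deviations from group and labelled strain. There 1 pair alone cannot pass, because the smallest permutation p is 0.0078.

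With the replicate number as a block, 0 members were called in AM against CAC mice, as were 0 of all genes, and in CAC against NOR mice Fos gave -2.24 with an edgeR adjusted p of 0.0504 and Fosb -2.01 with 0.0459. The numbers did not pair the mice: correlations of same-numbered libraries ran from -0.669 to 0.632, and the library with the same number was the best match for 2 of 20.

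With total counts in place of TMM the median of all genes moved from 0.01 to 0.14 in CAC against NOR mice and from 0.00018 to -0.11 in KD against CAC mice. No log2 fold change of a called member turned its sign under any setting. Uncalled ones did, and the cause was not tested.
In mice labelled C57BL/6 alone they were Junb (-0.015) and Atf3 (1.19) for CAC against NOR, Fos (-0.65) and Junb (0.58) for AM against CAC, Junb (0.68) for KD against CAC, and Jun (0.64) and Atf3 (0.58) for KD against NOR.
In mice labelled BALB/c alone they were Jund (0.025) for CAC against NOR, Cebpa (-0.66) for AM against CAC, Cebpa (-0.10), Fos (-0.19), Fosb (-0.58) and Jund (-0.038) for KD against CAC, Cebpa (-0.14), Fosb (0.17) and Junb (-0.15) for AM against NOR, and Cebpd (-0.13), Junb (-0.53) and Jund (-0.019) for KD against NOR.
Without the 5 libraries low in lymphocyte markers they were Junb (-0.32) for CAC against NOR, Junb (0.31) for AM against CAC, Cebpb (-0.30) and Junb (0.55) for KD against CAC, Junb (-0.016) for AM against NOR, and Cebpd (-0.23), Jund (-0.14) and Egr1 (0.37) for KD against NOR.
Without KD libraries 2 and 3 they were Cebpb (-0.43) and Junb (0.065) for KD against CAC and Cebpd (-0.11), Jund (-0.073) and Egr1 (0.39) for KD against NOR.
Atf3 gave 0.095 with labelled strain as a covariate (CAC against NOR), Fos -0.030 with limma-voom (AM against CAC) and Fosb -0.078 with total counts (KD against CAC).
Leaving out 1 library, the ranges that crossed 0 were Cebpa -0.036 to 1.40, Junb -0.10 to 0.59 and Atf3 -0.87 to 0.076 for CAC against NOR, Fos -0.78 to 0.92, Fosb -0.95 to 2.21 and Junb -0.39 to 0.28 for AM against CAC, Fos -0.023 to 0.73, Fosb -0.34 to 0.70 and Junb -0.54 to 0.18 for KD against CAC, Fosb -2.68 to 0.17 and Junb -0.016 to 0.43 for AM against NOR, and Jun -0.46 to 0.15 and Junb -0.18 to 0.31 for KD against NOR.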

Other observations

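The nuclear-encoded gene Nnt, chosen after its values were seen, did not follow the labelled strain. Summed over its 2 identifiers it stood at 27.0 to 50.1 CPM in NOR 1 to 4 and CAC 1 to 3 and at 315 CPM in CAC 4. It stood at 159 and 204 CPM in AM 1 and AM 3 and at 30.7 and 43.3 CPM in AM 2 and AM 4. In KD mice it was 94.7, 76.9, 81.7 and 40.5 CPM.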
